A study of Mus musculus with 28 samples.

Results

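Nuclear pore and nuclear transport genes were measured in sorted Treg cells of murine spleen and tumor. The 48 genes, of 53801 features in the table, were every feature named Nup, Kpna, Kpnb, Xpo, Ipo or Tnpo with a number (or Xpot), together with Ran, Seh1l, Sec13, Tpr, Rae1 and Aaas. The family was chosen by a measured value, the higher Nup153 in treated GBM libraries, so all comparisons of treated with control GBM libraries below are a description with no test. The data are bulk Smart-Seq2 RNA-seq profiles of cells gated as TCR+CD4+CD25hi CD127lo, with CD8+ cells sent to a dump channel. The cells came from spleens or from CT2A tumors, a murine glioblastoma (GBM) line grown in the forebrain of C57BL/6 mice, and the labels give no age for the animals.

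Mice received either control IgG2a or the combination of a PD1-blocking and a GITR-agonist antibody (αPD1 + αGITR), in 4 doses of 250 µg every 3 days, and tissue was taken 2 days after the last dose. There were 7 spleen IgG2a, 8 spleen αPD1 + αGITR, 5 GBM IgG2a and 7 GBM αPD1 + αGITR libraries. Both treatment groups carried tumors, so the spleen libraries are from tumor-bearing animals and not from healthy ones, and the tumor is 1 transplanted cell line. Several libraries share a label number (for example spleen_79_a to spleen_79_d), and the labels do not say whether a number is a mouse, a cage or a sort. No number occurs in both treatments, so whatever the number marks and the treatment cannot be told apart. The 7 spleen IgG2a libraries carry 4 numbers, 4 of them the same one, and the 8 spleen αPD1 + αGITR libraries carry 5. The 7 GBM αPD1 + αGITR libraries also carry 5 numbers, with at most 2 libraries of 1 number, so they may not be independent either. The 5 GBM IgG2a libraries carry 5. The spleen libraries of each arm outnumber the animals that the study gives for its RNA-seq, so some of them share an animal, and p-values over libraries in every comparison with spleen are too small. They measure only the spread between these libraries, and values with libraries of the same number averaged are given for the medians and for part of the named genes.

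Traffic between nucleus and cytoplasm passes through nuclear pore complexes, ring-shaped assemblies of nucleoporins set into the nuclear envelope. Y-complex and inner-ring nucleoporins form the scaffold, channel nucleoporins rich in phenylalanine-glycine repeats form the barrier, and a basket made of Tpr, Nup153 and Nup50 reaches into the nucleoplasm. Importins carry cargo in and exportins carry it out, and the small GTPase Ran, bound to GTP in the nucleus, sets the direction. In T cells, transcription factors such as NFAT, NF-κB and STATs enter the nucleus by this route after a signal at the membrane.

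The 4 promoter stretches below are shown because they belong to the 3 basket genes, which hold the gene that chose the family, and to Nup210, the pore membrane gene with the highest levels of the 48. Each stretch runs 5′ to 3′ on the strand of its gene and ends just before the more upstream of the gene starts in RefSeq and GENCODE. Bases in capitals are matches to any of 5 motifs searched on both strands: the NRF1 motif, CCGGAAG (an ETS motif), GGGCGG (the GC box), CCAAT and CACGTG (an E box). They are RefSeq sequences of GRCm38.p6, from Nup153 (chr13:46727941-46728099, minus strand), Tpr (chr1:150392588-150392837, plus strand), Nup50 (chr15:84923178-84923410, plus strand) and Nup210 (chr6:91116830-91117076, minus strand).
Nup153: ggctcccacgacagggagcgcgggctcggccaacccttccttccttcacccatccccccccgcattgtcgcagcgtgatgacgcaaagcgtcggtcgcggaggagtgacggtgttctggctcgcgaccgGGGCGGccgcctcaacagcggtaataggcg
Tpr: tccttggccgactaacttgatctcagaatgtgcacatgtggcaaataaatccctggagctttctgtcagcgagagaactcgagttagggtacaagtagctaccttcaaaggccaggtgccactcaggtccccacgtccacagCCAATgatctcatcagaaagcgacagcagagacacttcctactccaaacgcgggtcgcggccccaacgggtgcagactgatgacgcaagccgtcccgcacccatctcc
Nup50: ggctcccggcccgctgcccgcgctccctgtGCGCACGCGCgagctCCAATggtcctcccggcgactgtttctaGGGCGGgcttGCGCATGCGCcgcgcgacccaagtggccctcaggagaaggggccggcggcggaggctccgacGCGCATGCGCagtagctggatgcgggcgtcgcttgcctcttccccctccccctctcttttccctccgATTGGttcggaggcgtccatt
Nup210: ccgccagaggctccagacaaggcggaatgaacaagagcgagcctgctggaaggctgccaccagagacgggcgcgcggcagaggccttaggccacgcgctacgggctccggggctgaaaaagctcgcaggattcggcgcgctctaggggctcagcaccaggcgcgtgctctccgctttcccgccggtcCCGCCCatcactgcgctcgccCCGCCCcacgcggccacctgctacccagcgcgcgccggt

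Nup50 holds 3 NRF1 matches, 2 CCAAT matches and 1 GC box in this stretch, Nup153 holds 1 GC box, Tpr holds 1 CCAAT match and Nup210 holds 2 GC boxes. The stretches differ in length, with 159 bases for Nup153 and 233 to 250 for the others, so these counts are not on an equal footing. In the equal windows described next, Nup153 holds 3 GC boxes, Nup210 2, and Tpr and Nup50 1 each. RefSeq windows of 300 bases (250 before to 50 after the start) were at hand for 39 of the 48 genes, in 46 windows. The NRF1 motif was in 17.4% of these windows against 4.6% of 32851 windows of all genes. The ETS motif was in 21.7% against 8.86%, the GC box in 65.2% against 35.7%, CCAAT in 50.0% against 37.4%, and the E box in 17.4% against 7.15%. The median GC content was 64.2% in the windows of the family and 52.7% over all windows, and its part in these shares was not tested. A match of letters is not a measured binding site.

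Values are TPM, which are scaled for transcript length and to a fixed total in each library, so that levels of different genes can be set side by side. How many reads lie behind a value is unknown. The number of features above 1 TPM ran from 7702 to 17460, and the 10 most abundant features took from 31.9% to 78.3% of a library's TPM. The defining Treg and T cell markers were present: Foxp3, Il2ra, Ctla4, Ikzf2, Cd4, Cd3e, Cd3d, Cd3g and Trac were above 0 in all 27 libraries. The median summed TPM of this list was 774 and 715 in spleen IgG2a and spleen αPD1 + αGITR, and 1451 and 2187 in GBM IgG2a and GBM αPD1 + αGITR. A pair of GBM IgG2a libraries stood apart. Library tumor_369_a had the fewest features above 1 TPM (7702) and only 23 of the 48 genes above 1 TPM, and library tumor_79_a had 5904 TPM of 11 macrophage and microglia markers, where the group's median was 153. In the GBM αPD1 + αGITR group, library tumor_73_a had 2238 TPM of those markers, against a group median of 117. Of the 11 markers, Csf1r, Lyz2 and C1qb were at 0 in 1 library each, Fcer1g in 2, Cd68, C1qa and C1qc in 3, Tyrobp in 4, Aif1 in 7, Itgam in 10 and Adgre1 in 17. The median of C1qa was 0.73 and 4.29 TPM in spleen IgG2a and spleen αPD1 + αGITR, and 14.6 and 26.4 TPM in GBM IgG2a and GBM αPD1 + αGITR. From GBM IgG2a to GBM αPD1 + αGITR the medians of Lyz2 (35.5 and 7.45 TPM), Csf1r (9.06 and 4.53 TPM), Itgam and Adgre1 went down. Those of the other markers of this list went up, and the median of the summed list went from 153 to 117 TPM. B cell, CD8 and NK lists had highest sums of 157, 36.6 and 14.6 TPM. Neuron and glia markers, led by Mbp, had median sums of 7.21, 14.7, 52.1 and 22.7 TPM in spleen IgG2a, spleen αPD1 + αGITR, GBM IgG2a and GBM αPD1 + αGITR. Proliferation markers had median sums of 99.7, 199.97, 277 and 441 TPM in the same order of groups. The part of these markers in the results below was not tested beyond the values given without the libraries.

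**Figure D1:**
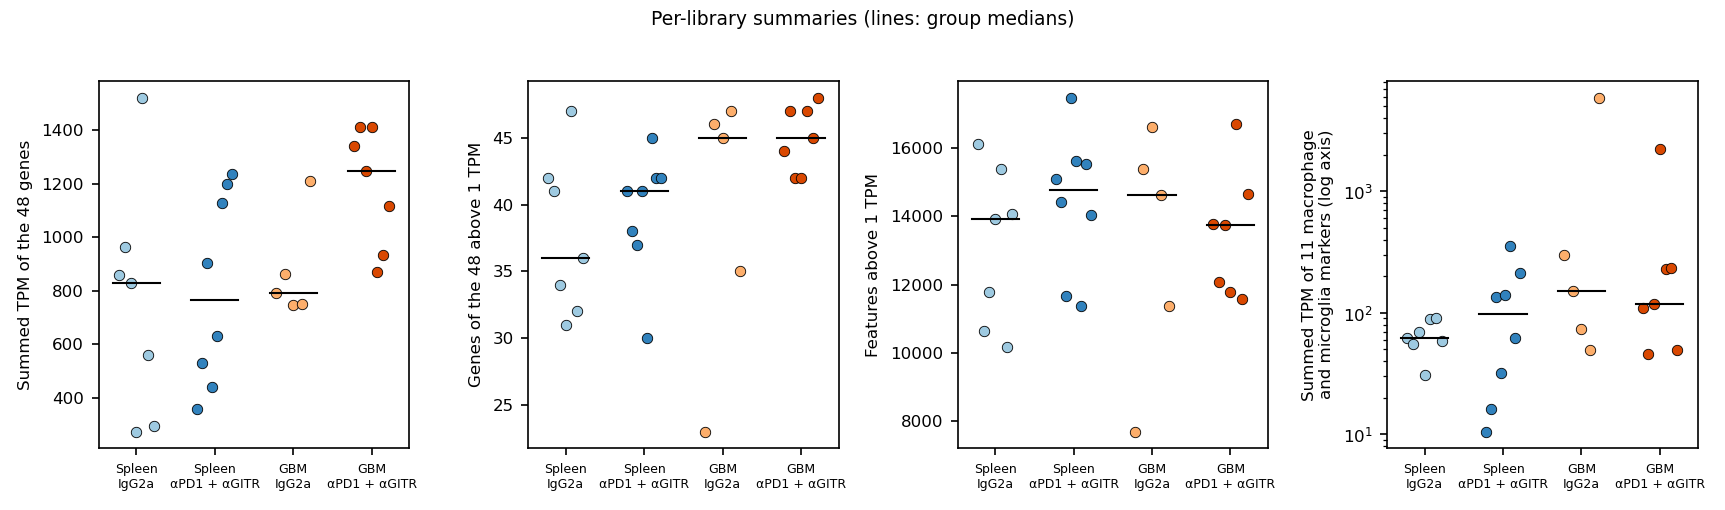
Per-library summed TPM of the 48 genes, number of the 48 above 1 TPM, number of all features above 1 TPM, and summed TPM of macrophage and microglia markers (log axis) in the 4 groups. Points are libraries and lines are group medians; the GBM IgG2a point at 23 genes is library tumor_369_a and the highest marker point, at 5904 TPM, is library tumor_79_a.

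The family as a whole was expressed in most libraries. In the median library, 36 of the 48 genes were above 1 TPM in spleen IgG2a, 41 in spleen αPD1 + αGITR, and 45 in both GBM groups. Their summed TPM had a median of 830 in spleen IgG2a (range 274 to 1521), 767 in spleen αPD1 + αGITR (360 to 1237), 792 in GBM IgG2a (746 to 1210) and 1247 in GBM αPD1 + αGITR (868 to 1412). The treated GBM group therefore had the highest median, but its range overlapped that of every other group. A level averaged over sorted cells cannot tell fewer expressing cells from less RNA per cell. The mean TPM was above 10 in at least 1 group for 33 genes and was 10 or less in every group for 15, among them Kpnb1 and Xpo1, the principal import and export carriers. Kpna7, an importin alpha known from oocytes and early embryos, was at or below 1.86 TPM in every library. The highest of the 4 group means was in GBM αPD1 + αGITR for 20 genes, in GBM IgG2a for 15, in spleen αPD1 + αGITR for 11 and in spleen IgG2a for 2.

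**Figure D2:**
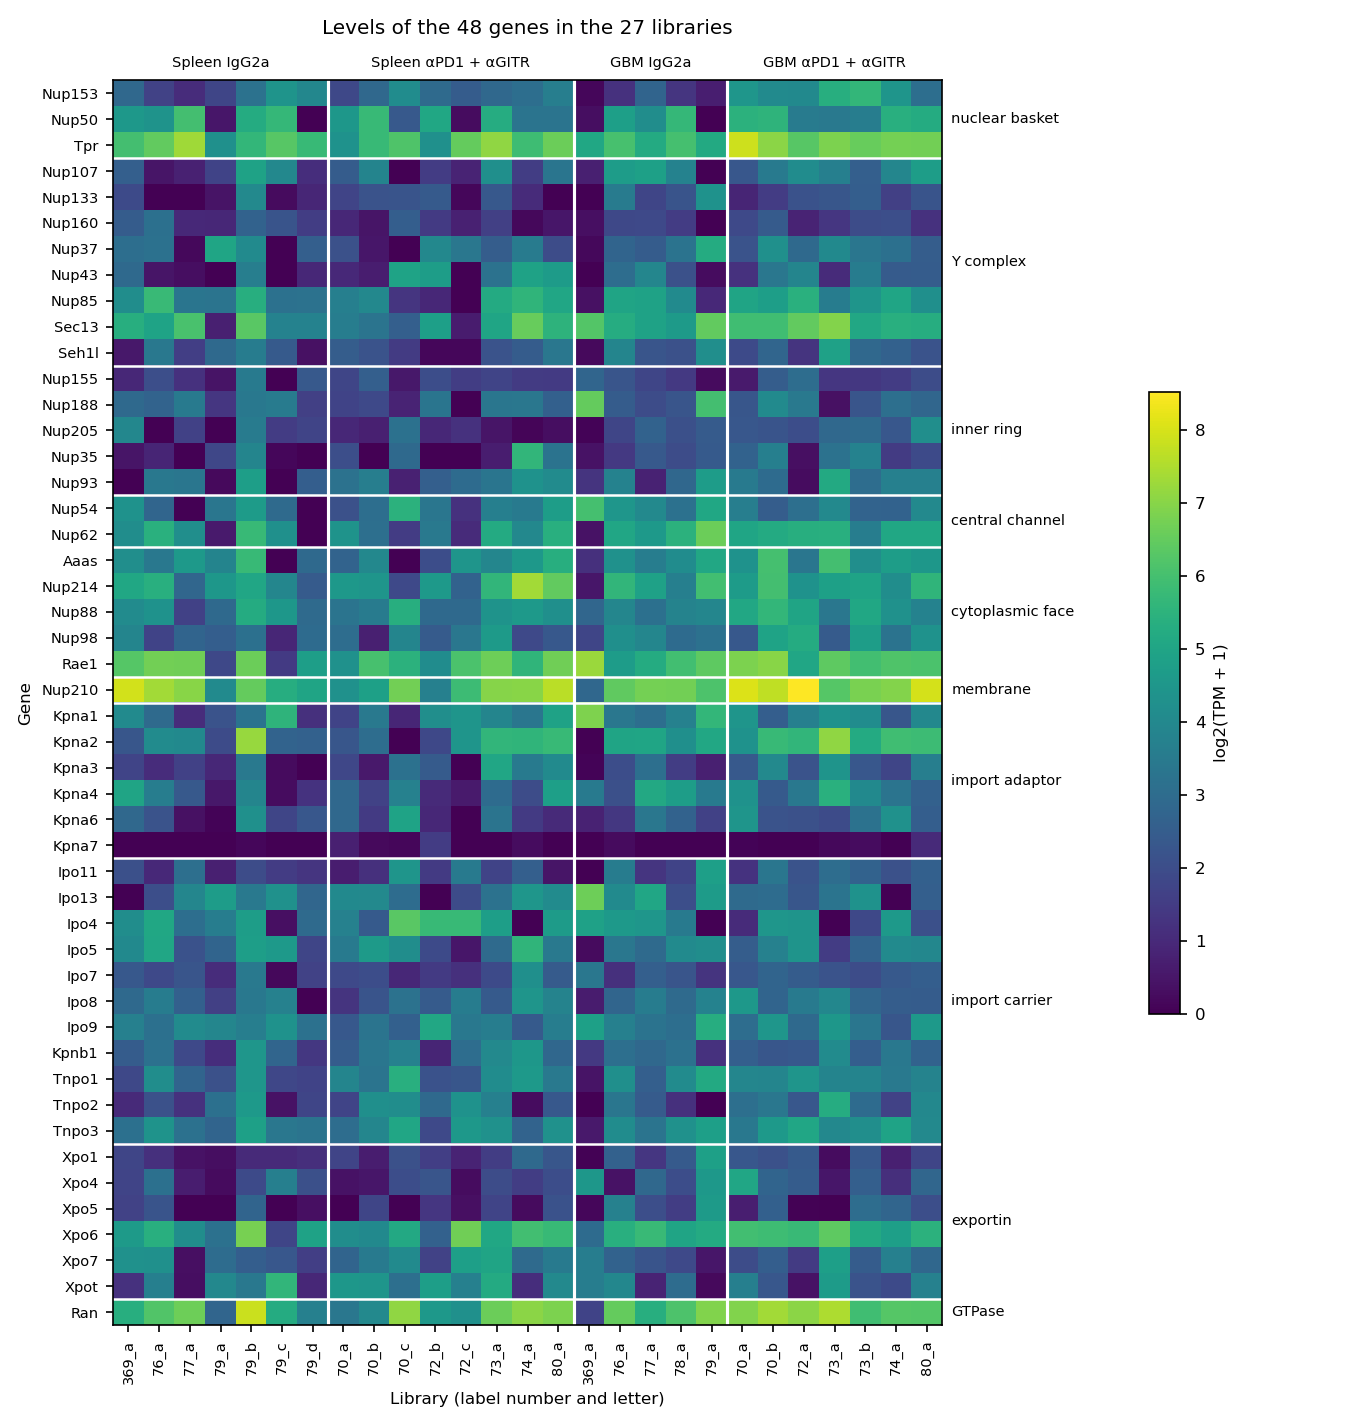
log2(TPM + 1) of the 48 genes (rows, by role) in the 27 libraries (columns, by group). Nup210, Tpr, Ran, Rae1 and Sec13 are bright in most libraries, Kpna7 is dark throughout, and the basket genes Nup153 and Tpr are brighter in the 7 GBM αPD1 + αGITR libraries than in the 5 GBM IgG2a libraries.

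In GBM, the basket genes Nup153 and Tpr had higher values in treated mice with no overlap between the groups, whereas Nup50 overlapped fully. Nup153, a basket nucleoporin that also binds chromatin and importins, was at 0.12, 1.34, 5.76, 1.51 and 0.63 TPM in the GBM IgG2a libraries tumor_369_a, tumor_76_a, tumor_77_a, tumor_78_a and tumor_79_a. In GBM αPD1 + αGITR it ranged from 7.43 to 49.6 TPM with a median of 21.0. The lowest treated library, tumor_80_a, thus lay above the highest control library, tumor_77_a. The means were 1.87 ± 2.24 (SD, n = 5) and 24.5 ± 14.9 TPM (SD, n = 7), a log2 fold change of 3.22 with a standard error of 0.68 on the log2(TPM + 1) scale. This is the value that chose the family, and no support is drawn from it. It was 2.96 without library tumor_369_a and 2.94 without libraries tumor_79_a and tumor_73_a, which were rich in macrophage markers. With other settings it was 2.82 with trimmed-mean (TMM-type) scaling, 2.56 with library weights, 2.41 after quantile normalization and 1.45 with a pseudocount of 10. It was 3.05 with libraries of the same number averaged, 3.47 without the 10 most abundant features and 4.16 with a pseudocount of 0.1.

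Tpr, the filament protein of the basket, was at 32.7, 65.9, 36.5, 64.0 and 35.7 TPM in the GBM IgG2a libraries tumor_369_a, tumor_76_a, tumor_77_a, tumor_78_a and tumor_79_a. It ranged from 77.8 to 237 TPM in GBM αPD1 + αGITR, with a median of 106. All 7 treated libraries lay above all 5 controls, with a log2 fold change of 1.35 and a standard error of 0.44, which came down to 0.66 with TMM-type scaling. Nup50, the basket protein that helps release importin alpha from its cargo, was at 0.25, 27.1, 17.3, 50.5 and 0 TPM in the 5 controls and between 9.81 and 45.3 TPM in the treated group. Its groups overlapped fully, and its log2 fold change of 1.61 ± 0.92 (SE) came down to 0.94 without library tumor_369_a and to 0.079 with library weights.

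Outside the basket, Nup210, the membrane glycoprotein of the pore, had the highest levels of the family. It was at 6.28, 85.7, 107, 103 and 70.8 TPM in the GBM IgG2a libraries and at 77.7 to 369.3 TPM (median 208) in the treated group, with 6 of 7 treated libraries above every control. Its log2 fold change of 1.69 ± 0.63 (SE) was 0.96 without library tumor_369_a, the library at 6.28 TPM. Kpna2, an import adaptor that reads classical nuclear localization signals and is abundant in dividing cells, was at 0, 30.6, 31.6, 18.0 and 33.6 TPM against 19.3 to 137 TPM, a log2 fold change of 1.80 ± 0.78 (SE) that was 0.83 without library tumor_369_a. Ran was at 2.26, 90.1, 40.2, 70.5 and 119 TPM against 59.3 to 178 TPM, and its log2 fold change of 1.42 ± 0.71 (SE) was 0.52 without that library. For these 3 genes, then, the size of the difference turned on 1 control library. Tnpo2, a transportin that imports RNA-binding proteins, was at 2.96 ± 3.89 (SD, n = 5) and 11.8 ± 12.1 TPM (SD, n = 7).

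A few genes ran the other way in GBM. Ipo13, which carries cargo in both directions, was at 101, 15.9, 32.1, 3.10 and 24.4 TPM in GBM IgG2a and at 0 to 19.2 TPM in GBM αPD1 + αGITR. Nup54 of the central channel was at 63.8, 21.1, 15.3, 8.06 and 33.3 TPM against 4.70 to 15.2 TPM, and 4 of 7 treated libraries lay below every control. Nup188 of the inner ring was at 90.9 and 62.6 TPM in libraries tumor_369_a and tumor_79_a and at 2.97 to 4.63 TPM in the other 3 controls, against 0.29 to 15.8 TPM in the treated group. Kpna1, another import adaptor, had the same form, with 118 and 49.6 TPM in those 2 libraries and 7.53 to 12.4 TPM in the others. The log2 fold changes were -1.86 for Ipo13, -1.32 for Nup54, -1.23 for Nup188 and -0.91 for Kpna1, and without library tumor_369_a they were -1.32, -0.95, -0.56 and -0.33. With library weights those of Nup188 and Kpna1 turned positive, at 0.32 and 0.11.

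By role, all 3 basket genes had positive log2 fold changes in GBM, also after quantile normalization and with TMM-type scaling. All 5 cytoplasmic-face genes and the 4 Y-complex genes tested were positive too, but after quantile normalization Nup98, Nup214, Nup107 and Nup37 were negative, and with TMM-type scaling Sec13 and Rae1 were. Of the 7 import carriers tested 4 were positive, and of the 3 import adaptors 1. Of the 30 family members with a mean TPM above 10 in either group, 22 were positive and 8 negative (14 and 16 after quantile normalization, 19 and 11 with TMM-type scaling, 16 of the 20 with both means above 10 TPM). Of all 7848 genes 71.6% were positive (56.2% after quantile normalization, 52% with TMM-type scaling). The members' median log2 fold change was 0.63, next to 0.62 over all genes. The members' median was 0.18 without library tumor_369_a, where that of all genes was 0.36. With libraries of the same number averaged the members' median was 0.68 (all genes 0.64). It was -0.036 after quantile normalization (all genes 0.13) and 0.11 with TMM-type scaling (all genes 0.055). Groups that did not overlap were found for 2 of 30 members upward (6.67%) and 0 downward, where all genes gave 1.77% upward and 0.42% downward. As the family was chosen in this contrast, nothing is read from these counts.

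**Figure D3:**
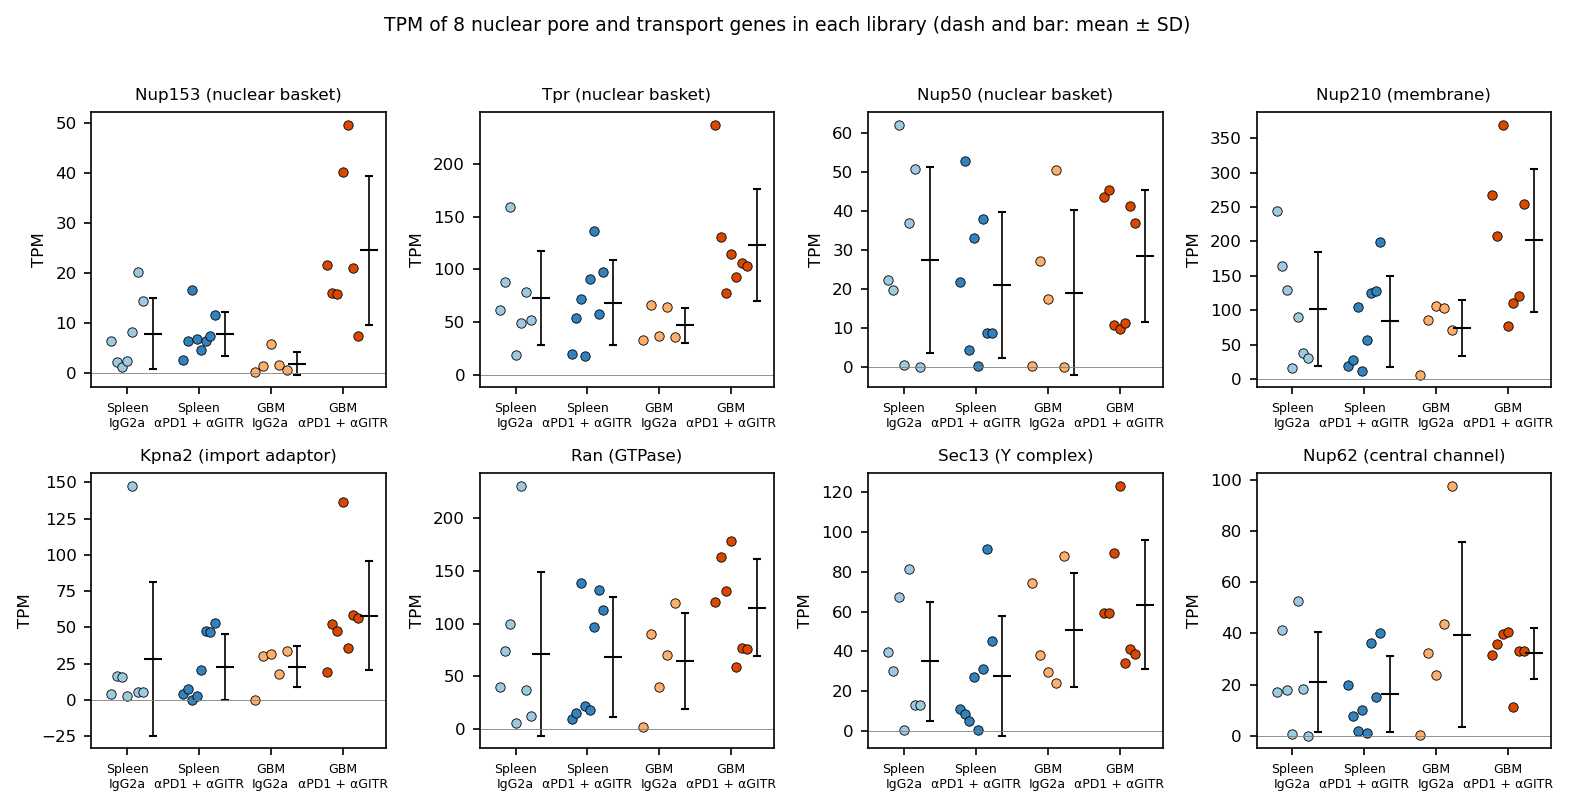
TPM of Nup153, Tpr, Nup50, Nup210, Kpna2, Ran, Sec13 and Nup62 in each library of the 4 groups, with the mean and SD beside the points. For Nup153 and Tpr all 7 GBM αPD1 + αGITR points lie above all 5 GBM IgG2a points, and the spleen groups overlap each other for all 8 genes.

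The spleen libraries were not used in the choice of the family, and they show the same treatment outside the tumor. No member passed an adjusted p of 0.05 by limma there. Of all 7848 genes in the GBM treatment contrast none passed it either (0%), so this threshold does not set spleen apart from GBM. With the standard errors below, a missing call does not show that a difference was absent. Nup153 was at 1.12 to 20.2 TPM (median 6.35) in spleen IgG2a and at 2.61 to 16.6 TPM (median 6.57) in spleen αPD1 + αGITR. The means were 7.84 ± 7.11 (SD, n = 7) and 7.78 ± 4.37 TPM (SD, n = 8), and the ranges overlapped, with an exact two-sided permutation p of 0.588 on log2(TPM + 1). Because both means were under 10 TPM, Nup153 was not among the genes fitted by limma here. Tpr ranged from 18.6 to 159 TPM in controls and from 18.3 to 137 TPM in treated spleens, with a log2 fold change of -0.13 ± 0.63 (SE). Nup210, Kpna2 and Ran had log2 fold changes of -0.29, -0.0016 and 0.077, with standard errors from 0.72 to 0.90.

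Among the 25 family members tested in the spleen, 16 had positive and 9 negative log2 fold changes, with a median of 0.16. Of all 6634 genes 58.1% were positive, with a median of 0.15. With libraries of the same number averaged the members' median was 0.38 (all genes 0.086). The log2 fold change of Kpna2 moved from -0.0016 to 0.61 and that of Ipo13 from 0.073 to 0.89. The filter bears on the count, since 5 of the 25, all with positive values, had a mean above 10 TPM in treated spleen alone. Of the 20 with both means above 10 TPM, 11 were positive, with a median of 0.045 (all genes 0.088). None passed an adjusted p of 0.05, and none of all genes did (0%). At an unadjusted p under 0.05 limma called 0 members, against a background of 1.49% higher and 1.04% lower. Nup43, a Y-complex subunit, had the largest positive value. With means of 2.83 and 14.999 TPM it entered the fit only through the treated group, where it was high. It was at 0 to 11.7 TPM (median 0.41) in spleen IgG2a and at 0 to 30.2 TPM (median 16.4) in spleen αPD1 + αGITR, with 4 of 8 treated libraries above every control. Its log2 fold change was 1.83 with a standard error of 0.93 and an adjusted p of 0.9997 by limma (exact permutation p = 0.0827), and was 2.58 with libraries of the same number averaged. Xpot, the exportin for tRNA, and Tnpo1, a transportin, followed with 1.13 and 0.94, and Tnpo1 too (7.85 and 15.01 TPM) entered through the treated group alone. Nup85, Sec13 and Ipo9 had the most negative values, at -0.82, -0.45 and -0.43, and that of Nup85 was -0.40 with the averaging. A pair of low genes outside the fit had unadjusted exact permutation p-values under 0.05, of 48 such values for this comparison. The share of all genes under 0.05 by this test was not computed, so nothing is read from the pair. Xpo1, the main exportin for leucine-rich export signals, was at 1.08 ± 0.73 (SD, n = 7) and 2.67 ± 1.92 TPM (SD, n = 8), with an exact permutation p of 0.0458. Nup160 of the Y complex, named after its values were seen, ran the other way, at 3.62 ± 2.54 (SD, n = 7) and 1.42 ± 1.57 TPM (SD, n = 8), with an exact permutation p of 0.046.

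**Figure D4:**
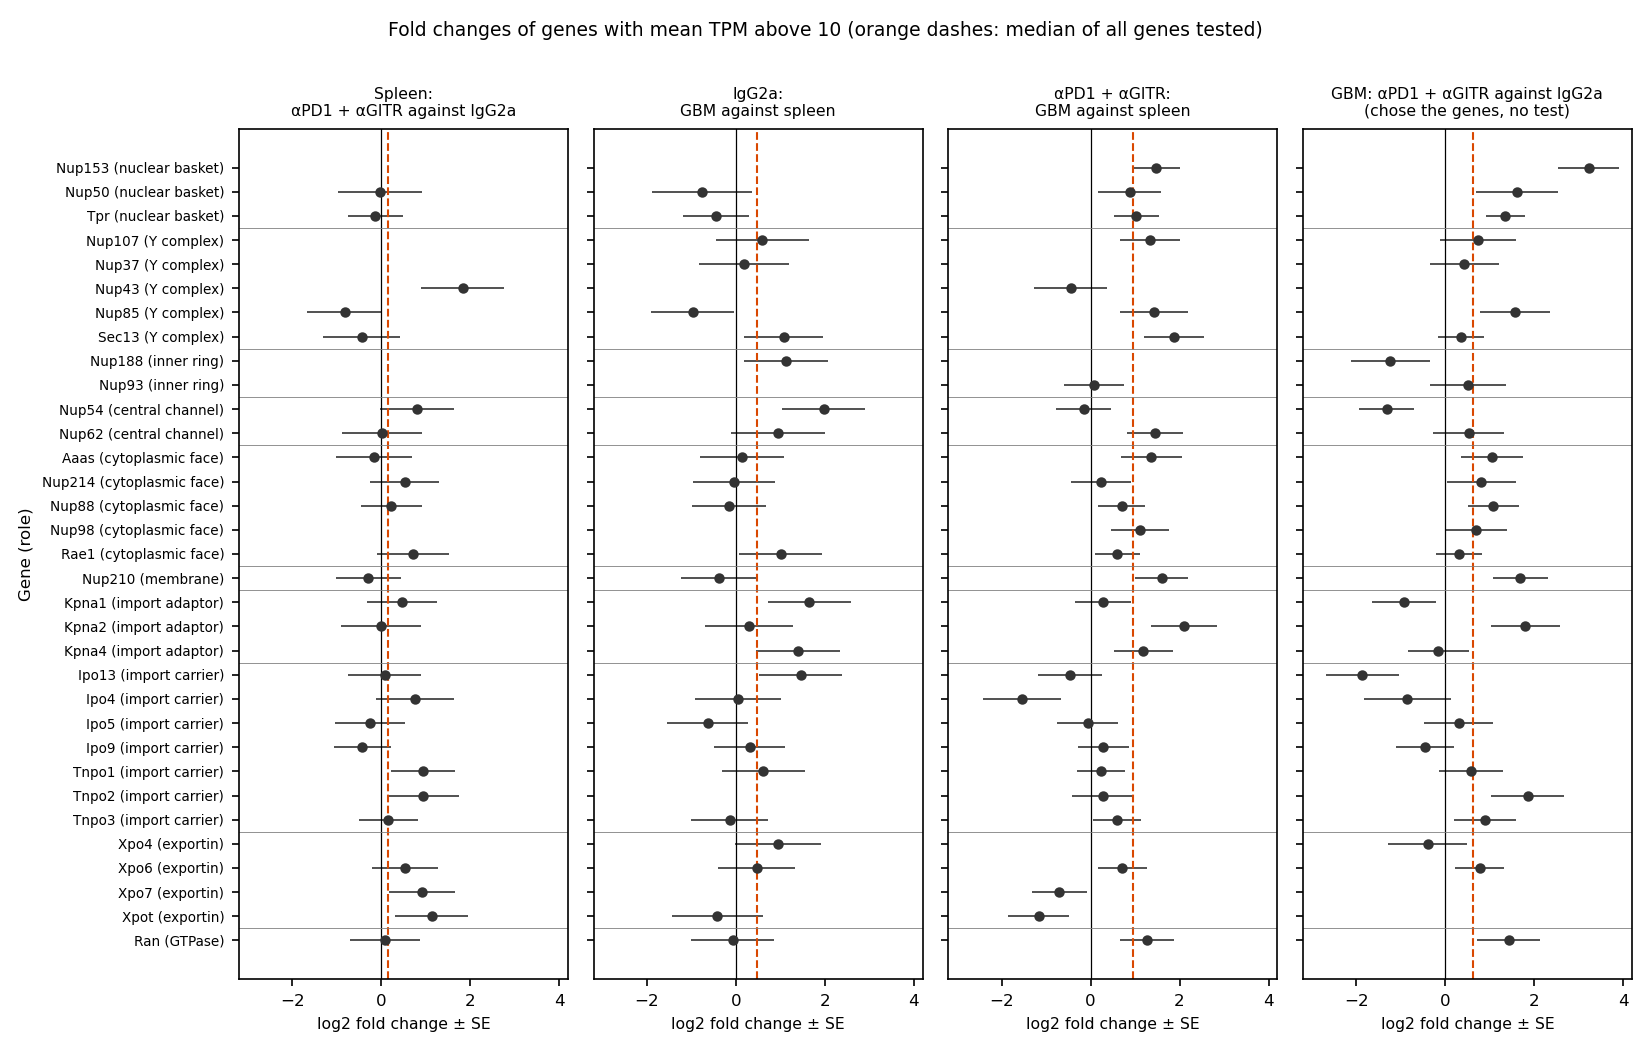
log2 fold change with its standard error on the log2(TPM + 1) scale for each gene with a mean TPM above 10 in either group, by role, in the 4 comparisons. Dashed lines mark the median of all genes tested, at 0.15, 0.48, 0.95 and 0.62; most family members in the third comparison are positive but lie around or below that line.

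The difference between the treatment effects in GBM and spleen was fitted in 1 model over the 4 groups. For Nup153 it was 2.94 on the log2 scale with a standard error of 0.90, the largest departure of the family. Since this term holds the contrast that chose the family, the value is a description.

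The tissue comparisons ask how the pore and transport genes of tumor Treg cells compare with those of splenic Treg cells under each treatment. Their GBM libraries also entered the contrast that chose the family, so Nup153 is given by its values. In control mice the GBM mean of Nup153 (1.87 TPM) was under the spleen mean (7.84 TPM), with 2 of 5 GBM libraries below every spleen library. In treated mice the GBM mean (24.5 TPM) was above the spleen mean (7.78 TPM), with 4 of 7 GBM libraries above every spleen library. The order of the 4 means was thus GBM αPD1 + αGITR, spleen IgG2a, spleen αPD1 + αGITR and GBM IgG2a, where the 2 spleen groups did not differ beyond their spread and each neighbour in the order overlapped the next.

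In IgG2a mice no member passed the test between tissues. Of 27 tested, 17 had higher and 10 lower values in GBM (12 and 15 after quantile normalization, 13 and 14 with TMM-type scaling). Of all 7380 genes 66.1% were higher (51.8% after quantile normalization, 56.9% with TMM-type scaling). The members' median log2 fold change was 0.30, under the 0.48 of all genes. Of the 27 members, 7 entered the fit only through GBM, all with higher values there, and of the 18 with both means above 10 TPM 10 were higher, with a median of 0.096 (all genes 0.32). The median over all 27 was 0.85 without library tumor_369_a, 0.11 without library tumor_79_a, -0.14 after quantile normalization (all genes 0.043), -0.0053 with TMM-type scaling (all genes 0.20) and -0.075 with libraries of the same number averaged (all genes 0.078). None had an adjusted p under 0.05, where 0.569% of all genes did. At an unadjusted p under 0.05 limma called 1 member higher (3.7%) and 0 lower, against backgrounds of 7.63% and 2.3%. That member was Nup54, at 0 to 24.5 TPM (median 6.71) in spleen and 8.06 to 63.8 TPM (median 21.1) in GBM, with a log2 fold change of 1.97 ± 0.94 (SE), an adjusted p of 0.486 by limma and an exact permutation p of 0.0707. Its means were 9.39 TPM in spleen and 28.3 TPM in GBM, so it entered the fit only through GBM, and no member was called at an unadjusted p under 0.05 when both means had to be above 10 TPM or with libraries of the same number averaged. Kpna1 and Ipo13 followed with 1.65 and 1.46, and again libraries tumor_369_a and tumor_79_a held the 2 highest GBM values of Kpna1. Nup85, Nup50 and Ipo5 had the most negative values, at -0.97, -0.76 and -0.63, and Ipo5 turned positive without library tumor_369_a, as Nup85 (0.31) and Nup50 (0.21) did with library weights. With libraries of the same number averaged these 3 were at -1.28, -1.85 and -0.84. The averaging also moved Nup62 from 0.94 to -0.075, Nup210 from -0.39 to -1.17 and Ran from -0.072 to -0.77.

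In αPD1 + αGITR mice, 23 of 30 members tested had higher mean log2 values in GBM than in spleen and 7 had lower ones. Of all 7506 genes 77.6% were higher. None of the members passed an adjusted p of 0.05, where 17.5% of all genes did. The median log2 fold change of the members was 0.65 and that of all genes 0.95. Of the 20 with both means above 10 TPM 18 were higher, with a median of 0.71 (all genes 0.95), while 5 entered the fit through GBM alone and 5 through spleen alone. Quantile normalization moved the members' median to -0.059 (all genes 0.15) and TMM-type scaling to -0.14 (all genes 0.22), and under either only 13 of 30 members were higher, so the direction of the family depended on the scaling. At an unadjusted p under 0.05 limma called 7 members higher (Kpna2, Sec13, Nup210, Nup153, Nup62, Ran and Tpr), or 23.3% of those tested, under the background of 34%. Nup153, whose GBM libraries chose the family, is among them. Of the 29 other members limma called 6, or 20.7%, at an unadjusted p under 0.05 and none at an adjusted p of 0.05. It called 0 lower, where 6.33% of all genes were. With libraries of the same number averaged, an alternative chosen after the data were seen, it called 0 members at an unadjusted p under 0.05, and the members' median was 0.16 (all genes 0.59).

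Kpna2 came closest to the threshold. It was at 0 to 52.9 TPM (median 14.0) in spleen and 19.3 to 137 TPM (median 52.3) in GBM, with a log2 fold change of 2.10 ± 0.75 (SE), an adjusted p of 0.0529 by limma and an exact permutation p of 0.0272. Sec13, a Y-complex subunit that also serves in COPII vesicle coats, was at 0.57 to 91.6 TPM in spleen and 34.0 to 123 TPM in GBM, with a log2 fold change of 1.87 ± 0.68 (SE) and an adjusted p of 0.0560 by limma. Nup210 was at 12.01 to 199 TPM in spleen and 77.7 to 369.3 TPM in GBM, with 4 of 7 GBM libraries above every spleen library. Its log2 fold change was 1.60 ± 0.59 (SE) with an adjusted p of 0.0574 by limma. These 3 genes overlapped between tissues in their lower GBM libraries and sat just outside the threshold. Some alternative settings took them past it, while others made the differences smaller. The log2 fold changes of Kpna2, Sec13 and Nup210 were 1.34, 1.00 and 0.99 after quantile normalization, 1.30, 1.10 and 0.77 with TMM-type scaling, and 1.23, 1.05 and 1.10 with libraries of the same number averaged, where the adjusted p by limma ran from 0.235 to 0.284.

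Nup62, the central-channel nucleoporin, was at 1.07 to 40.3 TPM in treated spleens and 11.3 to 40.4 TPM in treated GBM, a log2 fold change of 1.45 with an adjusted p of 0.0931 by limma, which was 0.42 after quantile normalization. Ran had a log2 fold change of 1.28 (adjusted p = 0.115, limma) and Tpr of 1.03 (adjusted p = 0.122, limma), and with TMM-type scaling these were 0.46 and 0.20. With libraries of the same number averaged, Nup62, Ran and Tpr had log2 fold changes of 0.94, 0.59 and 0.59. Nup98, which sits on both faces of the pore and also binds active genes, was at 8.29 ± 7.58 (SD, n = 8) and 18.5 ± 13.2 TPM (SD, n = 7), a log2 fold change of 1.11 with an adjusted p of 0.190 by limma, and of 0.35 after quantile normalization, and it entered the fit only through GBM. Nup205 of the inner ring, whose means of 1.59 and 6.46 TPM were too low for the fit, is named after its values were seen. It was at 0.09 to 8.16 TPM in spleen and 3.08 to 17.4 TPM in GBM. Its unadjusted exact permutation p of 0.00373 was picked from 48 such values for this comparison. The share of all genes under 0.05 by this test was not computed, so nothing is read from it. All 3 basket genes and all 5 cytoplasmic-face genes were on the higher side, although after quantile normalization Nup50, Nup214, Nup88 and Rae1 were lower, as were Nup214, Nup88 and Rae1 with TMM-type scaling.

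Among the carriers, the direction in the same comparison depended on the scaling. Of the 7 import carriers tested 4 were higher and 3 lower in GBM in TPM as deposited, but all 7 were lower after quantile normalization and with TMM-type scaling, and of the 3 exportins 1, 1 and 0 were higher. Ipo4, an importin for histones and ribosomal proteins, was at 31.7 ± 27.8 TPM (SD, n = 8) in treated spleens and 10.3 ± 10.7 TPM (SD, n = 7) in treated GBM, a log2 fold change of -1.55 with an adjusted p of 0.178 by limma, and of -0.88 with libraries of the same number averaged. Xpot and Xpo7 had log2 fold changes of -1.17 and -0.70, which were -2.18 and -1.78 after quantile normalization, where limma put both past an adjusted p of 0.05. Their means were 17.8 and 13.7 TPM in spleen but 8.55 and 8.51 TPM in GBM, so both entered the fit only through spleen, the group where they were high, and those calls rest on the filter. Kpnb1, the importin beta that pairs with the Kpna adaptors, had group means between 5.06 and 9.68 TPM and its exact permutation p was 0.612 between treated tissues. In TPM as deposited, import carriers had log2 fold changes from -1.55 to 0.60 and exportins from -1.17 to 0.71. The 3 import adaptors ran from 0.28 to 2.10, and Kpna1 among them was lower in GBM under either scaling and with the averaging.

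Other genes of the pathway that the naming rule leaves out were taken as a list of 29: further pore proteins, regulators of the Ran cycle, and mRNA export factors. Of these, 18 were tested between treated tissues, and 17 had higher values in GBM (13 after quantile normalization, 14 with TMM-type scaling). Of all genes 77.6% were higher (56.5% after quantile normalization, 58.3% with TMM-type scaling). The median log2 fold change of the list was 1.29, where that of all genes was 0.95. It was 0.48 after quantile normalization (all genes 0.15) and 0.57 with TMM-type scaling (all genes 0.22). Limma called 5 at an adjusted p of 0.05, all higher in GBM, where 17.5% of all genes were called. Among those called, Thoc7, a subunit of the THO complex in mRNA export, had a log2 fold change of 1.69 (adjusted p = 0.0371 by limma), and Nxt1, the partner of the mRNA exporter Nxf1, of 1.99 (adjusted p = 0.0450 by limma). The calls of 2 of the 5 rest on the filter, because their means were above 10 TPM in GBM alone and so they could enter the fit only through the group where they were high. These were Thoc5, also of the THO complex, with means of 5.93 TPM in spleen and 19.5 TPM in GBM, and Ahctf1, which seeds pore assembly on chromatin, with 7.88 and 37.1 TPM. With means above 10 TPM required in both groups, 2 of 12 such genes were called, with Nxt1 no longer among them (adjusted p = 0.0559 by limma). The count was 0 with TMM-type scaling, without the filter on low values and with all 4 groups in 1 fit, 1 after quantile normalization, 1 with libraries of the same number averaged, 1 to 7 with each library left out and 8 with library weights, so the calls depended on the processing. Ranbp1, an activator of GTP hydrolysis on Ran, was at 82.4 and 171 TPM (adjusted p = 0.0745 by limma).

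Between treated and control spleens 18 were tested, with a median of -0.31, and between IgG2a tissues 18, with a median of -0.33, and limma called none in either at an adjusted p of 0.05 or an unadjusted p under 0.05. In the GBM treatment contrast, which chose the family, 18 of 19 had positive values with a median of 1.22, where 71.6% of all 7848 genes were positive with a median of 0.62. After quantile normalization 17 were positive (56.2% of all genes), and 14 with TMM-type scaling (52% of all genes). Rangap1, the GTPase activator of Ran, had means of 14.8 TPM in GBM IgG2a and 37.3 TPM in GBM αPD1 + αGITR, and Ahctf1 of 7.35 and 37.1 TPM.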

How the data were processed

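The authors aligned reads with TopHat2 to mm10 and deposited a table of TPM from RSEM (a transcript level scaled for length and to a fixed library total) plus 1, and 1 was subtracted. Versions and annotation are not given in the sources used here. Of 28 libraries described, 27 were used, since 1 column carried no sample name and was not used. The family and all gene lists were chosen with earlier results of these data known. Groups were compared in pairs with limma 3.58.1 in R 4.3.3 (moderated statistics with an intensity trend) on log2(TPM + 1), over genes whose mean TPM exceeded 10 in either group of the pair, with Benjamini-Hochberg adjustment over all genes tested. Fold changes on this scale understate the change of low genes. Single members were also compared by exact two-sided permutation over libraries. With 7 against 8, 5 against 7 and 7 against 5 libraries the smallest exact p is 0.000155, 0.00126 and 0.00126. No 2 libraries held identical values (Spearman rho from 0.486 to 0.736 over 351 pairs).

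Genes were named by a rule: Nup153, Ran, Kpnb1, Kpna2, Xpo1, Tpr, Nup98 and Nup62, any member past an adjusted p of 0.05, and the 3 largest rises and falls among members tested in each comparison, 24 in all. Further pathway genes were named where called, except 1 that is not reported here, and Nup160, Nup205, Ranbp1, Rangap1 and the GBM values of Ahctf1 after their values were seen. Markers of Treg cells, macrophages and microglia, B, CD8 and NK cells, neurons and glia, and proliferation were summed per library. The fit was tested on simulated data. Alternatives varied the pseudocount (0.1 or 10), the filter, the scaling, library weights, a covariate, averaging by label number and each library in turn. Depth is unknown for TPM. Python 3.11.15 with pandas 2.3.3 was used for promoters, and sequences are from RefSeq (GRCm38.p6).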

Additional observations from a re-analysis of the deposited data

Results flagged for a closer look

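In 100 sets of values (24 named members and the sum of all 48 genes, in 4 groups), 7 values, in 5 libraries, lay far from the rest of their group; chance alone gives about 1 in 20. In GBM IgG2a, library tumor_369_a was the lowest for Kpna2 at 0.0 TPM (next 18.0) and for Nup210 at 6.28 TPM (next 70.8). In the same group, library tumor_79_a was the lowest for Ipo4 at 0.0 TPM (next 10.4) and the highest for the summed TPM of the 48 genes at 1210 TPM (next 864). In GBM αPD1 + αGITR, library tumor_73_b was the lowest for Nup62 at 11.3 TPM (next 31.6). In spleen IgG2a, library spleen_79_b was the highest for Kpna2 at 148 TPM (next 16.4). In spleen αPD1 + αGITR, library spleen_72_b was the highest for Ipo9 at 33.8 TPM (next 11.4). What sets these libraries apart was not tested.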

How the results depend on the processing

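The count of members at an adjusted p of 0.05 stayed at 0 under every alternative run in the treated against control spleen and in the IgG2a tissue comparison; at an unadjusted p under 0.05 limma called 0 to 1 members in the spleen, 0 to 2 between IgG2a tissues and 0 to 11 between treated tissues. Between treated tissues the adjusted count was 3 with a pseudocount of 10 (Nup153 among them), 2 after quantile normalization (Xpot and Xpo7, both lower in GBM and above a mean of 10 TPM in spleen alone) and 4 with library weights, and it ran from 0 to 5 when each library was left out. It was 5 without spleen_73_a, 4 without spleen_74_a, 4 without spleen_80_a, 2 without spleen_70_c and 1 without tumor_80_a, and all of these but that without spleen_74_a include Nup153, whose GBM libraries chose the family and which passed the filter through GBM alone. In the GBM treatment contrast, which is a description because it chose the family, the count was 1 with the number of genes above 1 TPM as a covariate and 1 with library weights, and ran from 0 to 1 with libraries left out (1 without tumor_73_b); the gene counted is Nup153, and nothing is read from it. The cause was not tested. Leaving out the libraries rich in macrophage markers and averaging libraries of the same number were alternatives added after the data were seen; the latter gave 0 adjusted calls in each comparison. Label numbers are shared between tissues within a treatment. Deviations of same-numbered libraries correlated between -0.159 and 0.182, and only 1 of 9 numbers correlated best with itself. Correlations this weak cannot decide whether a number marks a shared animal, because 2 tissues of 1 animal need not vary together. With the replicate block 0 members were called in either tissue comparison (medians 0.38 and 0.61), and 1 further pathway gene was called between treated tissues. Of 1923 fold changes of named members under alternatives, 141 changed sign and 28 passed the threshold; none of the 76 fold changes as reported passes it. Without counts, depth limits what low genes can show.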
